A study of Mus musculus with 6 samples.

Results

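A set of 10 genes of excitation-contraction coupling and calcium storage in striated muscle was followed in mammary gland RNA, on arrays that measured 20832 genes named by a RefSeq accession. They are the calcium channel subunits Cacna1s and Cacng1, the calcium release channel Ryr1, the junctional proteins Jph1, Jph2 and Trdn, the store proteins Casq1, Casq2 and Hrc, and the calcium pump Atp2a1. They were chosen by name, as calcium handling genes of the triad and the reticulum, with the diet differences of these same arrays (log2 processed signal, high-fat against control diet) already known. Those differences are therefore given as a description. All 10 genes had a probe, and 12 of the array's 39429 probes belonged to them: 2 each for Cacna1s and Trdn and 1 each for the others.

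RNA came from 6 female Trp53 knockout (Trp53-/-) mice, 1 single-colour array (Cy3) per mouse. The mice had been put at random on a high-fat diet (HFD, 3 mice) or a control diet (CD, 3 mice) from 3 weeks of age, and glands were taken at 8 weeks, after 5 weeks on the diet. Both diets share the knockout, and neither the strain nor the composition of the diets is given in the sources used here. The labels name mammary glands as the source, and the sample descriptions name mammary epithelial cells.

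Each array had 27249 to 29462 probes well above background, no saturated probe, and a 75th percentile of 1326 to 1973 intensity units. Levels below are log2 of the processed signal over that percentile, so a level is read within a probe and not between probes. Of 8 epithelial markers, 8 were measured, and their summed signal was 320 to 518 times the 75th percentile on the HFD arrays and 220 to 337 times on the CD arrays. Of 6 adipocyte markers all were measured as well, with sums of 1.41 to 5.95 (HFD) and 1.79 to 3.37 (CD). Such sums add signal over different probes, so they are read between arrays within a list and not between lists. The arrays lay on 3 slides: HFD replicate 1 on the first, HFD replicates 2 and 3 with CD replicate 1 on the second, and CD replicates 2 and 3 on the third.

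In a striated muscle fibre the action potential runs down the transverse tubule and moves the voltage sensor, the L-type calcium channel, which opens the ryanodine receptor of the sarcoplasmic reticulum. Junctophilins hold both membranes close together, triadin ties the release channel to calsequestrin, and calsequestrin and the histidine-rich calcium-binding protein buffer calcium inside the store. The SERCA pump returns calcium after each contraction. Most of these proteins are made mainly in striated muscle. In whole-tissue RNA, fewer cells of a type and less RNA per cell cannot be told apart.

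The 10 genes gave unlike values. A gene was tested where 3 or more of the 6 arrays read its probe well above background, and 9 of the 10 were. In 5 of these 9, Cacna1s, Cacng1, Ryr1, Casq1 and Hrc, every HFD array lay below every CD array on the processed signal. A normexp background fitted on all spots turned Cacng1, Ryr1 and Casq1, and with flagged spots left out they were lower again. In 1, Jph1, every HFD array lay above every CD array, by a narrow gap, and in 3, Casq2, Jph2 and Atp2a1, the diets overlapped. The 5 lower genes include Casq1, which was well above background on 0 HFD arrays and passed the filter through the CD arrays alone. Over all 23460 genes tested, 8.75% were apart and lower in this way and 8.47% apart and higher. Of these 23460, 16391 were named by a RefSeq symbol and 7069 kept the identifier the array gives, each counted as a gene. Among the named ones the shares were 9.21% and 8.68%. Of the 9, Cacna1s fell past an adjusted p of 0.05 in limma, and the other 8 did not pass. Of all genes 0.0171% fell past it. The tenth gene, Trdn, did not pass the filter.

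**Figure D1:**
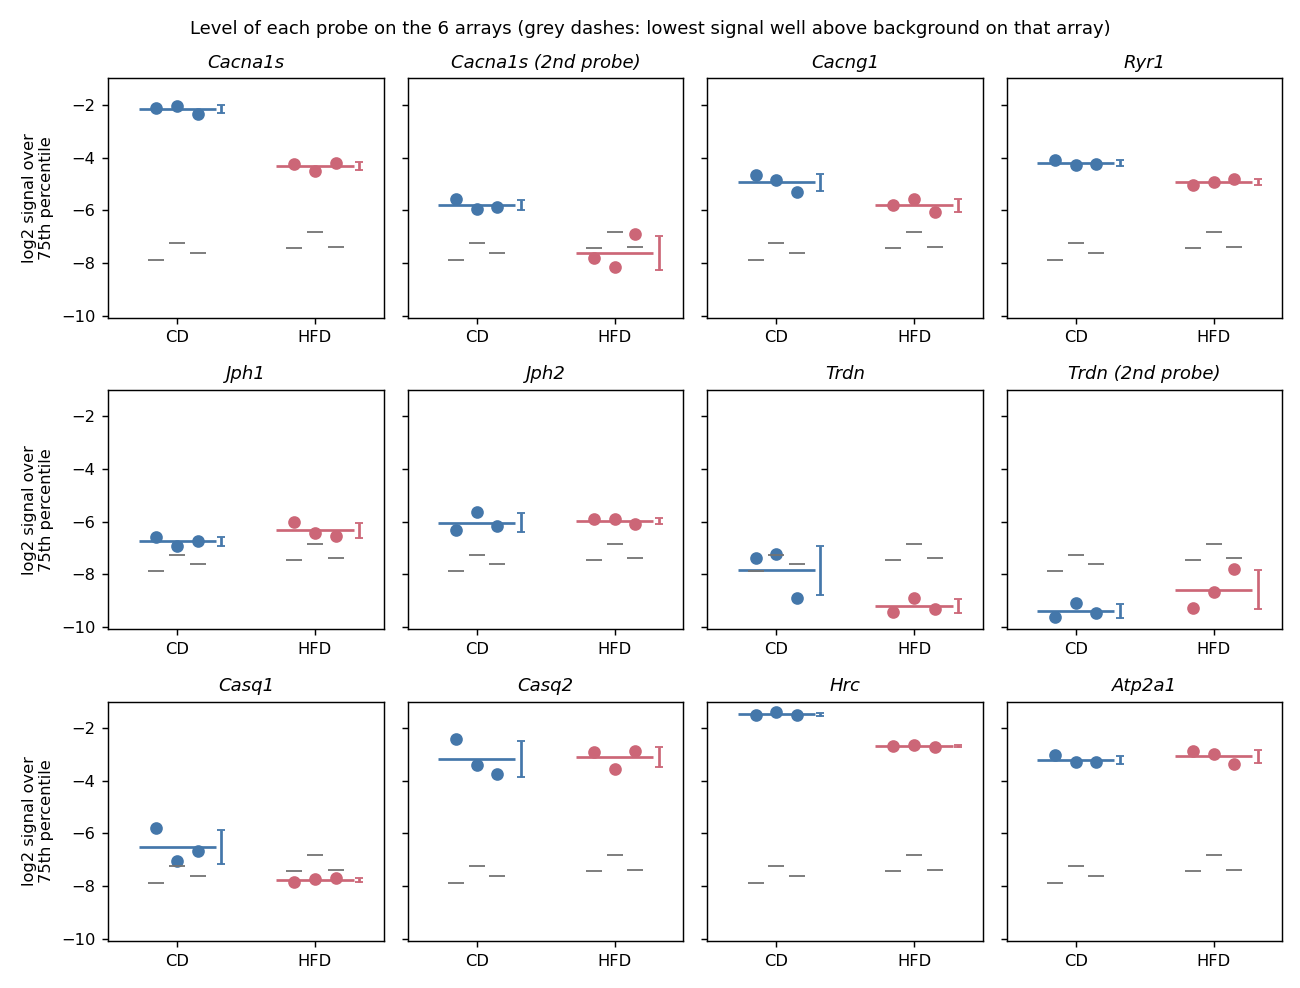
Log2 signal over the array's 75th percentile (vertical axis) for each of the 12 probes on the 3 CD (blue) and 3 HFD (red) arrays. Points are arrays, horizontal bars means and whiskers SD, and grey dashes mark the lowest signal well above background on that array. The brighter Cacna1s probe and Hrc stand well clear of that mark with the diets apart, and both Trdn probes lie near or under it. Casq1 lies under it on all 3 HFD arrays. The second Cacna1s probe lies under it on HFD replicates 1 and 2 and over it on HFD replicate 3. Levels are from the processed signal. With normexp fitted on all spots Cacng1, Ryr1 and Casq1 turned direction, and with flagged spots left out they were lower again.

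Upstream sequence from RefSeq (build GRCm38.p6) was held for 7 of the 10 genes. Sequences of 6 of these are shown, the 250 bases before the start site, because 4 belong to genes whose diets lay apart (Cacna1s, Hrc, Casq1 and Ryr1) and 2 to close functional partners whose diets overlapped (Casq2 and Atp2a1). Capitals mark matches on either strand to an E-box (CANNTG, the class of site that myogenic bHLH factors bind), an MCAT element (CATTCCT) or a MEF2 box.
Cacna1s: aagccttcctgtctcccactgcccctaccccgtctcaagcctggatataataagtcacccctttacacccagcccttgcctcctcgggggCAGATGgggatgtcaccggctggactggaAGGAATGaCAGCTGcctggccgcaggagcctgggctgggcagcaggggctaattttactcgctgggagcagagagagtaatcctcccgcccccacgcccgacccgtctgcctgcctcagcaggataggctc
Hrc: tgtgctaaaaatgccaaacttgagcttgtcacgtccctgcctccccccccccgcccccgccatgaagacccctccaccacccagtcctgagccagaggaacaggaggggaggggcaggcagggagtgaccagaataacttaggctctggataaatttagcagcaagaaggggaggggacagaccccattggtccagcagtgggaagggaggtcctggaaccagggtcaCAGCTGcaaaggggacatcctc
Casq1: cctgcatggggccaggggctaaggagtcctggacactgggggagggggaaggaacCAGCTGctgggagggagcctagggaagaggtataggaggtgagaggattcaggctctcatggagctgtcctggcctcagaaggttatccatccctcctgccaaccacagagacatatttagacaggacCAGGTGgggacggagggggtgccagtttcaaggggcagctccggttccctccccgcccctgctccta
Ryr1: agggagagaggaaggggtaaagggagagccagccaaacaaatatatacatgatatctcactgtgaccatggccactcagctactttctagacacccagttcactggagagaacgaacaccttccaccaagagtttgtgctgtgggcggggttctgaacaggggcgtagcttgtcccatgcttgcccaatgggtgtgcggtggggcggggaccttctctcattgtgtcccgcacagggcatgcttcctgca
Casq2: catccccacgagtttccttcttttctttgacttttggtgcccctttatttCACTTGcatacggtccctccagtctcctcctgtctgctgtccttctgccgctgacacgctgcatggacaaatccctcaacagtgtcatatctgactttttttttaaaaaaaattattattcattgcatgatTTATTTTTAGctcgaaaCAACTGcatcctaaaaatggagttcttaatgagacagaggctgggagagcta
Atp2a1: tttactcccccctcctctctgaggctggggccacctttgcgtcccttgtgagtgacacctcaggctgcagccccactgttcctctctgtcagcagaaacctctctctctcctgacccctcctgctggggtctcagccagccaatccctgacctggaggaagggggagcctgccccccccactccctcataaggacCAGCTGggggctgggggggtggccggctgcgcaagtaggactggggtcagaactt
They lie at chr1:136052561-136052810 (+ strand, Cacna1s), chr7:45335019-45335268 (+ strand, Hrc), chr1:172219896-172220145 (- strand, Casq1), chr7:29125152-29125401 (- strand, Ryr1), chr3:102086165-102086414 (+ strand, Casq2) and chr7:126463074-126463323 (- strand, Atp2a1).

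The E-box form CAGCTG, which is included in CANNTG, was found in the windows of 5 of the 7 genes, where 13% of all 32851 windows of this length hold it. Those 5 were Cacna1s, Hrc, Casq1, Atp2a1 and Jph2, so it occurred both in genes whose diets lay apart and in genes whose diets overlapped. In Hrc it began 22 bases before the start site and in Atp2a1 55 bases before it. In Cacna1s it began 123 bases before the start, next to the MCAT match that began 131 bases before it. An MCAT match was present in 1 of the 7 genes and in 4.51% of all windows. The MEF2 box was matched in 1 of the 7, Casq2, from 69 bases before the start, and in 2.92% of all windows. CANNTG in any form was matched in 6 of the 7 and in 66.2% of all windows. The exception was Ryr1, whose window held no match to any of the motifs searched. The CArG box and TATAAA were matched in 0 of the 7 and in 1.47% and 12.4% of all windows. A match is a run of letters and not a measured site.

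Cacna1s (NM_001081023), the pore and voltage sensor of the skeletal muscle L-type channel, stood apart by the widest gap. On its brighter probe the CD levels were -2.12, -2.05 and -2.33 on replicates 1 to 3 and the HFD levels were -4.23, -4.51 and -4.22. Within each diet the 3 arrays lay close together, and the lowest CD array was 1.89 above the highest HFD array. Means were -2.17 ± 0.14 (CD) and -4.32 ± 0.16 (HFD, SD, n = 3 each), so its log2 difference, HFD minus CD, was -2.16 (SE 0.14, 95% interval -2.51 to -1.81), or 4.46-fold lower. With the limma fit over all genes its adjusted p was 0.039.

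A second Cacna1s probe, dimmer and with the same accession, read -5.57, -5.94 and -5.86 on the CD arrays and -7.80, -8.15 and -6.89 on the HFD arrays. It was well above background on 3 of 3 CD arrays and 0 of 3 HFD arrays. Taken against the lowest detected signal of the HFD arrays, it was at least 2.4-fold lower there. With every probe tested on its own, where 0.0174% of 28689 probes fell past the threshold, the brighter probe had an adjusted p of 0.035 and the dimmer one 0.179 in limma. Both probes had the diets apart in the same direction, and both carry the same accession, while the exon or isoform that each reads was not analysed here. It passed the filter through the CD arrays alone.

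Cacng1 (NM_007582), the gamma subunit of that channel, had CD levels of -4.68, -4.85 and -5.30 and HFD levels of -5.82, -5.56 and -6.06. The gap between the diets was 0.26, about the SD within either diet (0.32 for CD, 0.25 for HFD). Its log2 difference was -0.87 (SE 0.21), or 1.83-fold lower. It was 0.49 with normexp fitted on all spots and -0.39 with normexp fitted without flagged spots.

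Ryr1 (NM_009109), the release channel that the voltage sensor opens, had CD levels of -4.08, -4.28 and -4.25 and HFD levels of -5.03, -4.92 and -4.80. The spread within a diet was small (SD 0.11 in each), and the gap of 0.52 exceeded it. Its log2 difference was -0.71 (SE 0.13), or 1.64-fold lower. It was 0.33 with normexp fitted on all spots and -0.41 with normexp fitted without flagged spots.

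Among the junctional proteins, Jph1 (NM_020604), the junctophilin of skeletal muscle, had CD levels of -6.58, -6.91 and -6.71 and HFD levels of -6.00, -6.44 and -6.54. The lowest HFD array exceeded the highest CD array by 0.04, and the log2 difference was 0.41 (SE 0.18, 95% interval -0.04 to 0.85). Jph2 (NM_021566), the junctophilin of heart that skeletal muscle also makes, read -6.31, -5.62 and -6.17 on the CD arrays and -5.91, -5.89 and -6.10 on the HFD arrays. The HFD arrays fell within the CD range, with a log2 difference of 0.07 (SE 0.20, 95% interval -0.42 to 0.56).

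Trdn (NM_029726), triadin, was dim on both of its probes. The first was well above background on 1 of 6 arrays, CD replicate 1, at -7.39, with -7.22 and -8.90 on the other CD arrays and -9.41, -8.90 and -9.31 on the HFD arrays. The second was dark on all 6 arrays. Its HFD mean of -8.57 ± 0.74 lay above its CD mean of -9.40 ± 0.27 (SD, n = 3 each), the reverse of the first probe. No fold is given for Trdn at these signals.

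Casq1 (NM_009813), calsequestrin of fast skeletal fibres, read -5.81, -7.05 and -6.68 on the CD arrays and -7.85, -7.74 and -7.71 on the HFD arrays. It was well above background on all 3 CD arrays and on 0 HFD arrays, so it passed the filter through the CD arrays alone and was at least 1.63-fold lower on HFD. That bound was 1.28-fold without CD replicate 1 and 1.96-fold without CD replicate 2. CD replicate 1 was the high array, and the fitted log2 difference was -1.25 (SE 0.31). It was 0.56 with normexp fitted on all spots and -0.37 with normexp fitted without flagged spots. Casq2 (NM_009814), the calsequestrin of heart and slow fibres, was detected on all 6 arrays, at -2.40, -3.40 and -3.73 (CD) and -2.90, -3.55 and -2.87 (HFD). Its CD range enclosed the HFD range, and the log2 difference was 0.07 (SE 0.38), with an interval from -0.84 to 0.98 that spans a fall or a rise of nearly 1 log2 unit.

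Hrc (NM_010473), the histidine-rich calcium-binding protein of the reticulum lumen, had the smallest spread within each diet among the 10 genes. Its CD levels were -1.51, -1.41 and -1.51 and its HFD levels -2.67, -2.63 and -2.72. The SD within a diet was 0.06 (CD) and 0.04 (HFD), and the gap between the diets was 1.12. The log2 difference was -1.20 (SE 0.11, 95% interval -1.46 to -0.94), or 2.3-fold lower, with an adjusted p of 0.077 in limma. By unadjusted p it ranked 7 and Cacna1s 2 among the 23460 genes.

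Atp2a1 (NM_007504), the SERCA1 pump of fast fibres, had overlapping diets. Its CD levels of -3.03, -3.30 and -3.28 and HFD levels of -2.87, -3.0 and -3.36 overlapped. The log2 difference was 0.12 (SE 0.17, 95% interval -0.29 to 0.53). Another pair of genes was chosen for mention after their values were seen: Atp2a2, the SERCA2 pump of slow fibres and most other cells, differed by -0.01 (SE 0.14), and Pvalb, parvalbumin, the soluble calcium buffer of fast fibres, by 0.24 (SE 0.16).

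**Figure D2:**
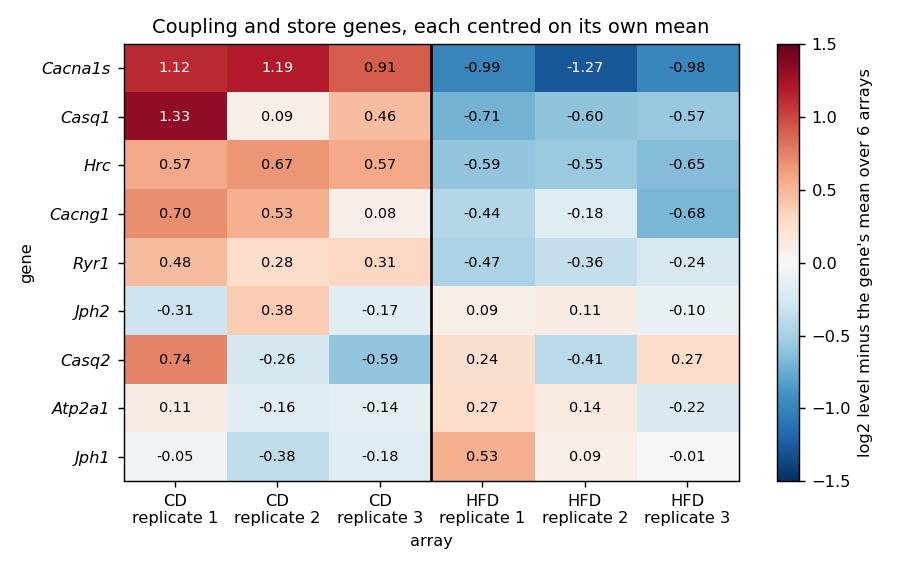
Log2 level minus the gene's own mean over the 6 arrays (colour and printed value) for the 9 genes past the filter, with CD arrays left and HFD arrays right of the line. Cacna1s, Casq1, Hrc, Cacng1 and Ryr1 are above their mean on every CD array and below it on every HFD array, while Casq2 is highest on CD replicate 1 (0.74) and lowest on CD replicate 3 (-0.59). Values are from the processed signal. With normexp fitted on all spots Cacng1, Ryr1 and Casq1 turned direction, and with flagged spots left out they were lower again.

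Over the 9 genes the median log2 difference was -0.71, beside -0.01 over all 23460 genes tested, and it leaves out Trdn. With normexp fitted on all spots it was 0.49, with normexp fitted without flagged spots -0.37, and with genes well above background on all 6 arrays -0.32. Without CD replicate 1, 2 or 3, each of which dropped Casq1 through the filter, it was -0.36, -0.40 and -0.47. At an unadjusted p under 0.05, 5 of 9 had lower values and 0 higher, where 7.46% of all genes had lower and 5.88% higher values. These counts hold Casq1, which had to differ to pass the filter, and they come from the contrast that led to the choice of genes.

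Across the 6 arrays the levels of the 5 genes with lower HFD values had Pearson correlations of 0.84 to 0.99 in their 10 pairs. The 6 pairs among Casq2, Jph1, Jph2 and Atp2a1 ran from -0.45 to 0.78, with the highest value for Jph1 and Atp2a1. The 20 pairs between both sets ran from -0.75 to 0.30. The arrays share diet and slide, so these values mostly restate the diet difference. Within the CD arrays, replicate 1 stood 0.70 above the diet's mean for Casq1 and 0.78 above it for Casq2, but 0.03 below it for Hrc.

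Slide 2 held both diets, with HFD replicates 2 and 3 and 1 CD array. Within it the log2 differences were -2.25 for Cacna1s, -1.17 for Hrc, -1.13 for Cacng1, -0.78 for Ryr1 and -1.91 for Casq1, whose HFD signal was not above background. The sign of these 5 was given beforehand, since their diets did not overlap on the 6 arrays. Jph1 differed there by 0.09, Jph2 by 0.32, Atp2a1 by -0.15 and Casq2 by -0.81, so Atp2a1 and Casq2 changed sign. With slide as a block limma called 0 of all genes (1232 at an unadjusted p under 0.05), and the adjusted p of Cacna1s was 0.70.

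**Figure D3:**
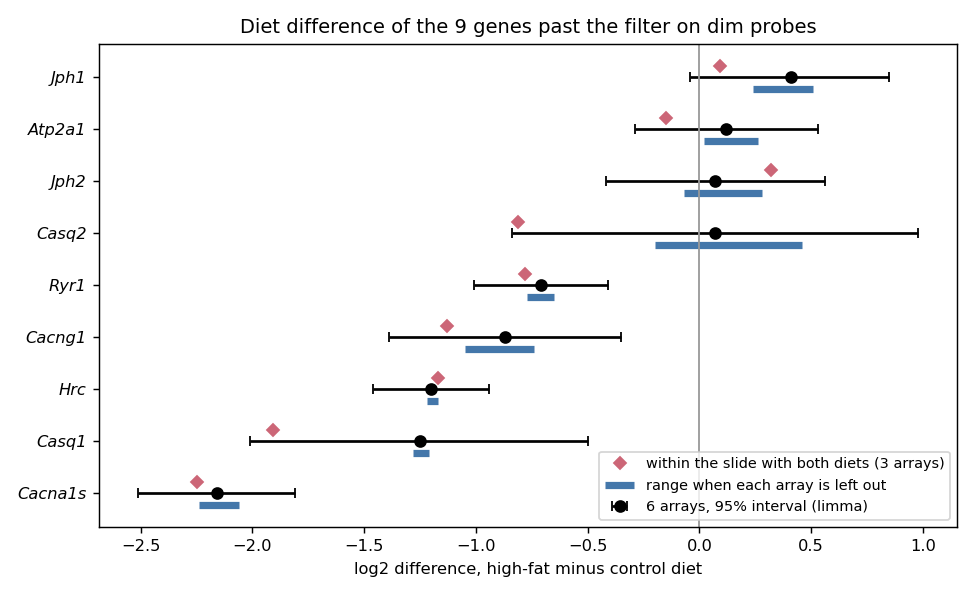
Log2 difference, HFD minus CD (horizontal axis), of the 9 genes past the filter. Black points and bars give the limma estimate and 95% interval from 6 arrays, red diamonds the value within the slide that held both diets, and blue bars the range when each array was left out in turn (3 of 6 omissions for Casq1, which failed the filter in the others). For the 5 lower genes the diets did not overlap, so that these values show only how the size varied. Under a normexp background fitted on all spots Cacng1, Ryr1 and Casq1 lie above 0, and with flagged spots left out they lie below 0.

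The call of Cacna1s was lost when any array but HFD replicate 3 was left out, in fits where 0 of all genes passed. Leaving out HFD replicate 3 kept it (adjusted p = 0.040), and leaving out HFD replicate 1, HFD replicate 2, CD replicate 1, CD replicate 2 or CD replicate 3 gave adjusted p from 0.086 to 0.20 in limma. Its log2 difference was -2.24 to -2.06 in those fits, and the adjusted p was 0.10 with the replicate block, 0.056 with quantile normalization, 0.13 with no filter and 0.094 with the mean of both probes.

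The background correction changed several of these values. With a normexp background (offset 50) fitted on all spots, the log2 differences of Cacng1, Ryr1 and Casq1 turned to 0.49, 0.33 and 0.56, Cacna1s became -1.01 and Hrc -0.70, while the median of all genes was 0.27. Relative to that median Casq1 was 0.29, Cacng1 0.22 and Ryr1 0.06 higher, and Cacna1s was 1.28 lower (-1.28). The SE in that fit was 0.85 for Casq1, 0.75 for Cacng1 and 0.7 for Ryr1, larger than their differences. That correction lifted the lower quartile of HFD replicate 3 to -1.6, where the other 5 arrays had -4.73 to -4.15. HFD replicate 3 held 3 spots over 1000 units below their local background, all flagged by the scanner software, and no other array held any. With flagged spots kept out of the normexp fit and of the test, which left 21168 genes, a setting chosen after seeing the data, its lower quartile was -4.20 and the other 5 arrays had -4.40 to -3.98. The differences were then -0.39 (Cacng1), -0.41 (Ryr1), -0.37 (Casq1), -1.66 (Cacna1s, adjusted p = 0.0081) and -1.05 (Hrc, adjusted p = 0.025), with a median of -0.06 over all genes.

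**Figure D4:**
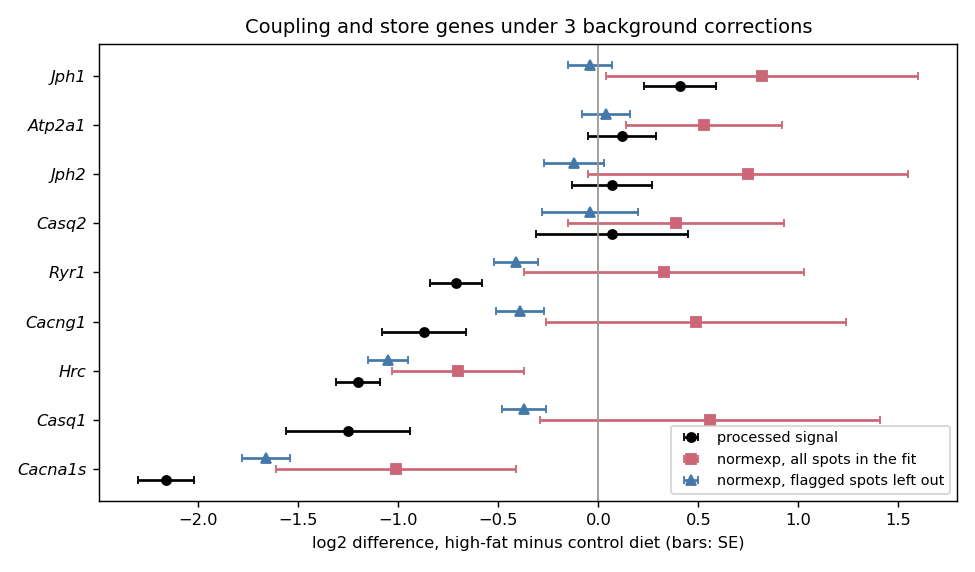
Log2 difference, HFD minus CD (horizontal axis, bars SE), of the 9 genes from the processed signal (black), from normexp fitted on all spots (red) and from normexp fitted without flagged spots (blue). Red points of Cacng1, Ryr1 and Casq1 lie above 0 with wide bars, and the blue ones lie below 0, closer to it than the black ones.

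Other proteins of the triad and the reticulum were taken from a list of 24 genes, of which 22 passed the filter. In 17 the HFD value was lower and in 5 higher, with a median log2 difference of -0.46 against -0.01 over all genes. That median was -0.08 with normexp fitted on all spots, where all genes had 0.27. It was -0.29 with normexp fitted without flagged spots. In either direction 0 passed the test over all genes, and 7 were lower and 1 higher at an unadjusted p under 0.05. Of all genes tested 51.0% had a lower HFD value, and at that unadjusted p 7.46% were lower and 5.88% higher. These shares also stand beside the counts of the lists below. The 17 and the 7 include Sln, which passed the filter through the CD arrays alone. Cav3, the muscle caveolin of the tubule membrane, had CD levels of -0.65, -0.85 and -0.99 and HFD levels of -2.67, -2.56 and -3.22, and its diets were far apart. Sln, sarcolipin, a small inhibitor of the SERCA pump, was well above background on 3 of 3 CD arrays (-5.76, -2.92 and -5.04) and 0 of 3 HFD arrays, so it was at least 6.26-fold lower on HFD. That bound was 3.53-fold without CD replicate 2, the high array, and 9.44-fold without CD replicate 1. Srl, the reticulum protein sarcalumenin, differed by -0.64 (SE 0.17) and Rtn2, a reticulon of the reticulum membrane, by -0.63 (SE 0.18). Within slide 2 the list's median was -0.07, close to 0, though Cav3 differed there by -2.24.

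Genes of membrane excitability, which carry the signal to the triad, were divided: 6 of 11 tested had lower and 5 higher HFD values, with a median of -0.23 (0.62 with normexp fitted on all spots) and 0 past the test over all genes (3 lower and 0 higher at an unadjusted p under 0.05). The acetylcholine receptor subunits Chrna1 and Chrnd differed by -0.71 (SE 0.22) and -1.11 (SE 0.48), Musk, the receptor kinase of the neuromuscular junction, by -0.70 (SE 0.27), and Ache, acetylcholinesterase, by -0.55 (SE 0.19), with 1 of 3 HFD arrays above background.

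Calcium store genes that most cells use were near 0 on the processed signal. Of 20 such genes, all tested, 13 had lower and 7 higher HFD values, the median was -0.05, and 0 passed either over all genes or at an unadjusted p under 0.05. That median was -0.19 with normexp fitted on all spots, where all genes had 0.27, and -0.09 without flagged spots. The lowest unadjusted p were those of Rcn2, a reticulocalbin (0.31, SE 0.14), Orai3, a store-operated channel (-0.31, SE 0.14), Calr, calreticulin (-0.28, SE 0.16), and Itpr1, an inositol trisphosphate receptor (-0.24, SE 0.14).

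Cardiac and neuronal relatives of the 10 genes had a median of -0.03 over 7 tested, with 0 at an unadjusted p under 0.05. That median was 0.61 with normexp fitted on all spots and -0.15 without flagged spots. Cacna1d and Cacna1c, other L-type channel pores, differed by 0.17 (SE 0.11) and -0.09 (SE 0.29), Slc8a1, the sodium-calcium exchanger, by -0.36 (SE 0.25), and Fkbp1b, a ryanodine receptor binding protein, by -0.28 (SE 0.40).

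Contractile markers of muscle fibres also had lower HFD values. All 7 fast fibre markers tested of 9 had lower HFD values (median -1.19), and the list's summed signal was 1.61 to 1.98 on the HFD and 4.92 to 8.49 on the CD arrays. Of 8 slow fibre markers 7 were lower (median -1.18), with sums of 1.43 to 2.02 (HFD) and 3.80 to 4.01 (CD). Tnnc2 and Tnnt3, the fast troponins C and T, differed by -2.40 (SE 0.23) and -2.20 (SE 0.23), Myl1, a fast light chain, by -3.16 (SE 0.36), and Actn3, the fast alpha-actinin, by -1.02 (SE 0.20). Tnni1 and Tnnc1, the slow troponins I and C, differed by -1.98 (SE 0.16) and -1.28 (SE 0.20), and Actn2, the Z-disc actinin, by -3.32 (SE 0.41), with 2 of 3 HFD arrays above background. Myoz2, a Z-disc protein, was above background on 3 of 3 CD and 0 of 3 HFD arrays, passed the filter through the CD arrays alone, and was at least 2.87-fold lower. With normexp fitted on all spots the medians of the fast and slow lists were -0.86 and -0.17, and without flagged spots -0.95 and -0.84. In both lists 0 genes passed the test over all genes. At an unadjusted p under 0.05, 7 fast and 7 slow markers, Myoz2 among them, were lower, where 7.46% of all genes were. Myh2, of the fast list, was dark on all 6 arrays.

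General fibre markers were more mixed: 7 of 10 tested were lower, with a median of -0.41. That median was 0.15 with normexp fitted on all spots and -0.30 without flagged spots. The list's sums were 3.44 to 4.59 (HFD) and 4.13 to 5.29 (CD), and these ranges overlap. Most of each sum is the signal of Acta1, named after its values were seen, which differed by 0.01 (SE 0.24). At an unadjusted p under 0.05, 3 markers of the list were lower and 0 higher, and 0 passed over all genes. Ttn and Neb, the giant sarcomere proteins, differed by -2.04 (SE 0.26) and -1.18 (SE 0.29), Eno3, the muscle enolase, by -0.79 (SE 0.22), and Tcap, a Z-disc cap protein, by -0.78 (SE 0.32). Ckm, muscle creatine kinase, and Mb, myoglobin, both named after their values were seen, differed by -0.44 (SE 0.44) and 0.03 (SE 0.23). The part that the amount of muscle in a sample has in the lower coupling genes was not tested.

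Other muscle types and cell types gave the following sums. Cardiac markers, all 6 past the filter, summed to 3.18 to 4.96 (HFD) and 3.46 to 4.83 (CD), with a median difference of -0.09. Of these, 1 was above background on only 2 of 3 CD arrays. Myogenic precursor markers were lower in 3 of 4 tested (median -0.63, and -0.91 within slide 2). Their median was -0.10 without HFD replicate 3, 0.06 with normexp fitted on all spots and -0.46 with normexp fitted without flagged spots. Their sums were 2.54 to 3.15 (HFD) and 2.51 to 3.12 (CD). These sums hold Ncam1, an adhesion molecule that other cell types also make, which differed by 0.34 (SE 0.33), while Myod1, Myog and Mymk, regulators of myogenesis and myoblast fusion, differed by -0.63 (SE 0.60), -0.94 (SE 0.63) and -0.62 (SE 0.22). Myf5 was dark on all 6 arrays. Smooth muscle markers were higher on HFD in 8 of 8 (median 1.01, sums 172 to 229 against 97.1 to 154), and epithelial markers in 8 of 8 (median 0.77). Fibroblast markers were lower in 6 of 6 (median -1.34, sums 101 to 257 against 278 to 434), and leukocyte markers were near 0 (median 0.25 over 5, sums 7.01 to 8.99 against 7.6 to 11.8). Adipocyte markers had a median of 0.14, and of -0.06 with normexp fitted without flagged spots, where the leukocyte median was -0.02. With normexp fitted on all spots the cardiac median was 0.35, and without flagged spots -0.13. In these 7 lists 0 genes passed over all genes, and at an unadjusted p under 0.05 the counts were 6 higher (smooth muscle), 4 higher (epithelium), 4 lower (fibroblast), 1 lower (myogenic precursor) and 1 higher each (cardiac, adipocyte and leukocyte). Of all genes 7.46% were lower and 5.88% higher at that p. Their part in the values of the 10 genes was not tested.

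**Figure D5:**
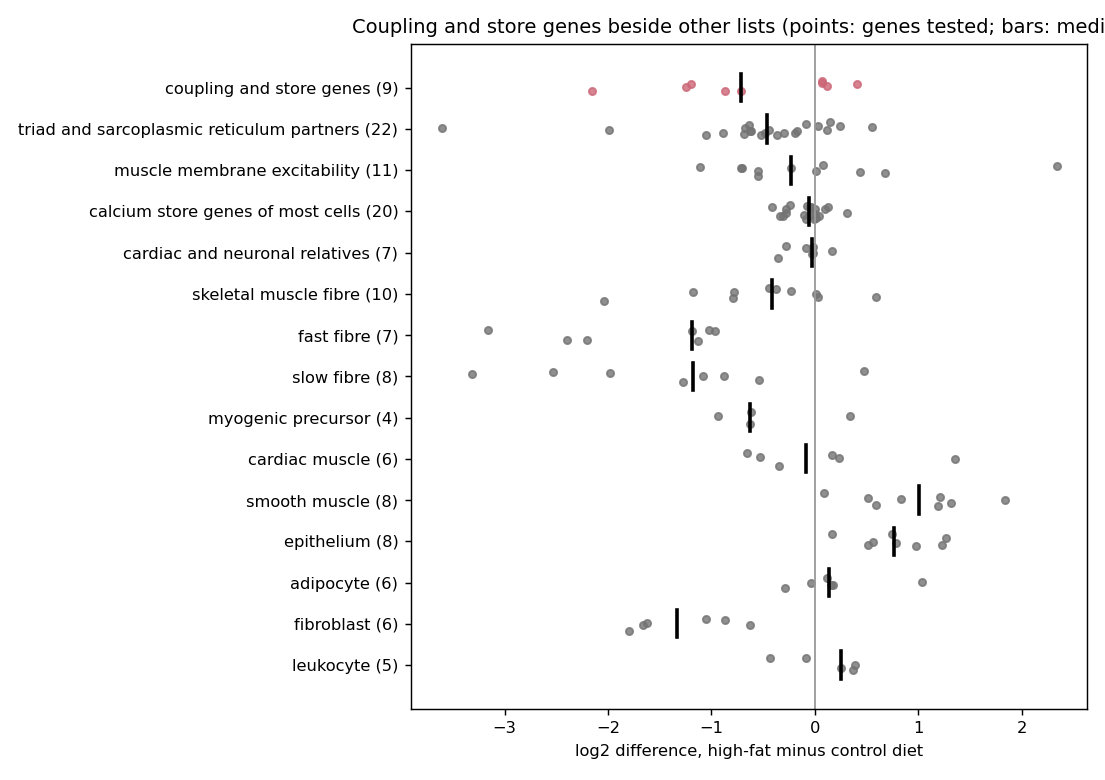
Log2 difference, HFD minus CD (horizontal axis), of each gene tested (points), by list, with the number tested in parentheses and black bars at the medians. The 9 coupling and store genes (red) split into 5 below -0.5 and 4 at or above 0, calcium store genes of most cells cluster near 0, and fast and slow fibre markers lie mostly below -0.5. Points of Casq1, Sln and Myoz2 are fitted values against HFD signal not above background. With normexp fitted on all spots Cacng1, Ryr1 and Casq1 lay above 0, and with flagged spots left out they lay below 0.

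The genes whose 6 levels followed the mean centred profile of the 9 coupling and store genes most closely were Tnnc1 (r = 0.992 over 6 arrays), Crisp3, a cysteine-rich secretory protein (0.990), 9430037G07Rik, a noncoding RNA (0.985), Tnnt3 (0.983), Itgb1bp2, the muscle protein melusin (0.982), and Trpv1, a cation channel (0.975). That profile was -0.23, -0.34 and -0.35 on HFD replicates 1 to 3 and 0.52, 0.26 and 0.14 on CD replicates 1 to 3, so CD replicate 1 stood highest. Crisp3 was above background on 0 of 3 HFD arrays and was at least 1.41-fold lower there. The log2 differences of the other 5 ranged from -2.20 (Tnnt3, SE 0.23) to -0.26 (Trpv1, SE 0.11), and Itgb1bp2 was above background on 2 of 3 HFD arrays. The mean profile joins unlike genes. Pair correlations between the 5 coupling and store genes with lower HFD values and the other 4 ran from -0.75 to 0.30. Tnnc1 and the genes listed with it were picked for having the highest r. Because the arrays share diet and slide, such r values mostly restate the diet difference.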

How the data were processed

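Per the file headers, arrays were read with Agilent Feature Extraction 11.0.1.1 on an array design annotated on mouse build mm9, and the deposited scanner files give linear intensity: a background-subtracted, detrended processed signal and median spot and background signals. The authors' deposited series table holds the same intensity scaled per array: within each array, 99.9% of its probes differed from the processed signal by a constant factor, to a tolerance of 1%.

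Control and outlier spots were left out, spots of a probe averaged, and 111 probes dropped because some array had no usable spot for them. Log2 signal was taken relative to each array's 75th percentile. Probes were named through RefSeq accessions (27427 of 39429), the others kept the identifier the array gives, and the brightest probe per gene or identifier entered limma 3.58.1 in R 4.3.3 (lmFit, eBayes, two-sided, Benjamini-Hochberg over 23460 genes, threshold 0.05), HFD minus CD, without covariates. "At least" folds set the CD mean against the mean of, per HFD array, the higher of the probe's signal and the lowest signal well above background. The fit was tested on simulated data.

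The genes and lists were chosen with earlier results of these data known. Named were the 10 genes, the 4 of each pathway and fibre list with the smallest p, the 6 genes most alike, and genes marked in the text as chosen later. Other cell type lists are given by counts and sums, except that of the myogenic precursor list all genes but Pax7, which did not pass the filter, are also named. Alternatives covered scaling, background, filter, probe rule, variance, slide, replicate number, the deposited table and each array left out. Precision is limited by the number of arrays.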

Additional observations from a re-analysis of the deposited data

How the results depend on the processing

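Of the 4 genes past the test among all genes and the 1 among the 10, counts under other settings were 2 of all genes with each array relative to its median; 0 and 0 with quantile normalization (3210 genes at an unadjusted p under 0.05), normexp fitted on all spots (1101), no filter (3165) and slide as a block (1232); 7 and 2 with probes well above background on all 6 arrays; and 14 and 2 with normexp fitted without flagged spots, where 21168 genes were tested in place of 23460. With the mean of all probes of a gene 0 of the 10 passed. The median of the 9 genes moved to 0.49 with normexp on all spots, -0.37 without flagged spots and -0.32 with the filter on all 6 arrays, which drops Casq1. Leaving out each array gave 0 to 42 genes (42 without HFD replicate 3, 0 without any other array), 0 to 1 among the 10 and a median of -0.75 to -0.36. Signs reversed for Cacng1 (0.49), Ryr1 (0.33) and Casq1 (0.56) with normexp on all spots, for Casq2 (-0.81) and Atp2a1 (-0.15) with slide as a block, and for Casq2 (-0.04), Jph1 (-0.04) and Jph2 (-0.12) with normexp without flagged spots. Casq2 (-0.20 to 0.46) and Jph2 (-0.07 to 0.28) also did so when single arrays were left out. Cacng1, Ryr1 and Casq1 were lower again without flagged spots, a setting chosen after seeing the data that also tested fewer genes. The cause was not tested for these or for the other changes. Hrc passed in 2 of 18 alternatives (adjusted p 0.025 and 0.046).

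Replicate numbers are shared by the diets, and the deviations of same-numbered arrays had r = 0.33, -0.14 and 0.25. CD replicates 1 and 3 correlated best with their own number and CD replicate 2 with HFD replicate 3 (0.23), so the numbers were not taken as pairs. With the replicate block 0 genes passed among all genes and 0 among the 10 (4044 at an unadjusted p under 0.05). Across the alternatives list medians moved by under 1 SD between arrays in 216 cases and by more in 36. Dim signal limits Casq1, Trdn and the second Cacna1s probe.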

Other observations

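Some genes of the lists, chosen after their values were seen, were uneven among the HFD arrays. Kcnj11, the pore of the ATP-sensitive potassium channel, read -4.19, -7.40 and -3.23 on HFD replicates 1 to 3 and -7.20, -6.93 and -7.70 on CD replicates 1 to 3, so HFD replicate 2 lay with the CD arrays. Abcc9, a regulatory subunit of that channel, read -5.02, -3.10 and -3.0 on the HFD and -5.00, -3.89 and -4.27 on the CD arrays, and there HFD replicate 1 was the low array. Ryr2, the ryanodine receptor of heart, was well above background on 1 HFD array (-5.84, replicate 2) and on 0 CD arrays.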
